A study of Mus musculus with 6 samples.

Results

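Described here are 9 mouse genes for enzymes that finish cell-surface glycans: the sialyltransferases St3gal1, St3gal4, St3gal6, St6gal1, St8sia1, St8sia4 and St8sia6, and the branching enzymes Gcnt1 and Mgat5. They were chosen by symbol, and all 9 were found among the 32377 gene identifiers of the count table and were tested. The table holds RNA-seq read counts from 2 groups of 3 libraries, labelled TNFR2-deficient Treg and TNFR2 positive Treg. Regulatory T (Treg) cells are CD4 T cells that restrain other immune cells through the transcription factor Foxp3, and TNFR2, encoded by Tnfrsf1b, binds tumour necrosis factor. The labels state no strain, age, treatment, tissue or sort, and do not say whether the deficiency was genetic or whether each library is a separate animal, so every p-value reflects the spread between these libraries only, which may be technical. The study set the groups against each other to find genes that differ between Treg cells without and with TNFR2.

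Sialic acid is added last to a glycan chain and sets which lectins can bind it. The linkage differs by family: ST3Gal enzymes join it to galactose in alpha-2,3 linkage, ST6Gal1 in alpha-2,6 linkage, and ST8Sia enzymes join it to another sialic acid in alpha-2,8 linkage. Cortical thymocytes bind peanut agglutinin, a lectin for the bare core 1 O-glycan, and lose this binding as they mature and ST3Gal1 caps that core. Core 2 branching by the Gcnt1 enzyme competes for the same core, and the N-glycan branches made by the Mgat5 enzyme bind galectins, which restrain T cell receptor clustering.

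Total counts were 22465991 to 24038118 in the TNFR2-deficient libraries and 19296082 to 23587552 in the TNFR2 positive ones, so a floor of 3 counts is worth 0.125 to 0.155 CPM, that is, counts relative to the total of their library. Tnfrsf1b was at 7.32 to 8.30 CPM in TNFR2-deficient libraries and 80.2 to 84.6 CPM in TNFR2 positive ones, and Foxp3 at 1.34 to 1.53 against 73.0 to 76.9 CPM. All 6 Treg markers were lower in TNFR2-deficient libraries, where they summed to 30.7 to 36.3 CPM, against 526.4 to 578.1 CPM. All 10 markers of double-positive thymocytes, the cortical stage that carries CD4 and CD8, were higher and summed to 3472 to 3574 against 414.3 to 433.6 CPM. Among them Rag1 was at 834.2 to 965.8 against 3.22 to 3.37 CPM, and Ptcra had 0 counts in TNFR2 positive libraries 1 and 3. The data go against a label of Treg cells alone in both groups, since the 5 B cell markers summed to 5112 to 5312 CPM in TNFR2-deficient libraries and 4017 to 4109 CPM in TNFR2 positive ones, with 2 higher and 1 lower. The summed levels of the other marker lists were 822.8 to 891.0 against 444.9 to 501.2 CPM for myeloid cells (5 of 7 higher), 17952 to 20506 against 4219.8 to 6989.8 CPM for erythroid cells (5 of 5 higher), 53.4 to 55.4 against 140.3 to 146.6 CPM for cytotoxic and NK cells (6 of 6 lower), and 13.6 to 16 against 4.60 to 5.15 CPM for platelets (4 of 4 tested higher). Thymic epithelium markers summed to 7.57 to 7.85 against 5.79 to 7.12 CPM (2 of 6 tested, neither past the threshold). Of those too low to test, Foxn1 had 0 counts in 5 of the 6 libraries. Krt5, Krt8 and Psmb11 had 7, 22 and 8 reads over the TNFR2-deficient libraries and 0, 3 and 5 over the TNFR2 positive ones. In such mixtures fewer cells of a type and less RNA per cell cannot be told apart. The part of these cell types in the results below was not tested.

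Promoter sequences of 300 bases, from 250 before to 50 after the gene start, were available in RefSeq (build GRCm38.p6) for 8 of the 9 genes, with 13 starts in all. Each was searched on both strands for 4 motifs: CACCTG, bound by E proteins; TGTGGT, bound by Runx factors; CTTTGA, bound by TCF-1 and LEF1; and CCGGAA, bound by Ets factors. These are sites of transcription factor families that act in thymocytes and T cells. CACCTG was present in 15.4% of the 13 promoters (both in Gcnt1) and in 20.2% of all 32851 promoters of that length. TGTGGT was also present in 15.4% (St3gal6 and St8sia4) against 16.8% of all promoters, CTTTGA in 15.4% (St3gal6 and St8sia6) against 16%, and CCGGAA in 7.69% (Mgat5) against 14.9%. The shares among the 13 promoters were thus no higher than among all promoters. Shown here, in gene orientation with motif matches in capitals, are the promoters of St8sia6 and St3gal4, the genes with the largest falls among the 9, and of St8sia4, the one gene of the 9 whose call turned round with the treatment of gene length. They lie at chr2:13793471-13793770, chr9:35116815-35117114 and chr1:95667545-95667844, all on the minus strand.
St8sia6: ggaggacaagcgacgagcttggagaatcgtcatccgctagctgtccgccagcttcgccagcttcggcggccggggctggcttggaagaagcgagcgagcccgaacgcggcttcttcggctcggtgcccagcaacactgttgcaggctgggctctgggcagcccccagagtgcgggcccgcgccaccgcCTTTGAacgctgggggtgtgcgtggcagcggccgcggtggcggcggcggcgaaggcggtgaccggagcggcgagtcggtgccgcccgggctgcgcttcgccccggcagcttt
St3gal4: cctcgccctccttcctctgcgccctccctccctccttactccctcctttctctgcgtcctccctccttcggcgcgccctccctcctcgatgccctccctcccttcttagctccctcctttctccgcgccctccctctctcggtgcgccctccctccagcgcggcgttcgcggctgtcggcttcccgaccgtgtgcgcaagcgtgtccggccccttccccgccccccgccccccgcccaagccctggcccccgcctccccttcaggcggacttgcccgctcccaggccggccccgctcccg
St8sia4: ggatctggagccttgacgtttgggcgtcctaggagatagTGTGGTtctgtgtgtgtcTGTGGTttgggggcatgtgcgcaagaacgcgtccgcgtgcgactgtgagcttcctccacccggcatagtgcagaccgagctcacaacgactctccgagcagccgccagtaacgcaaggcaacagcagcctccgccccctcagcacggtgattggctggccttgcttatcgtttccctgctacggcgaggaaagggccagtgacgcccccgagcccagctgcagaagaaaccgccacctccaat
The St8sia6 window was 72% G and C and held 1 CTTTGA, which began 62 bases before the start. The St3gal4 window was 74% G and C and held none of the 4 motifs. The St8sia4 window was 61.3% G and C and held TGTGGT at 211 and 193 bases before the start.

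Of the 9 genes, 7 were lower in the TNFR2-deficient libraries and 2, St3gal6 and Mgat5, did not pass the threshold (edgeR's quasi-likelihood test, Benjamini-Hochberg adjusted p below 0.05 over 17022 genes). Across all genes tested 34.2% were lower and 35.1% higher, so the 7 of 9 (77.8%) stand against a background in which 69.3% of genes changed in either direction. No gene of the 9 rose in the main edgeR fit, with DESeq2 or with limma-voom. In these fits 0 had a higher level at an unadjusted p below 0.05. Of the 9, edgeR gave 1 higher with upper-quartile scaling and 3 higher with the relation to exonic length removed, as described below. The falls were modest: the median log2 fold change (log2FC, TNFR2-deficient over TNFR2 positive) of the 9 genes was -0.34, beside 0.04 for all genes tested. For 6 of the 9 the 2 groups did not overlap, with the TNFR2-deficient libraries lower, as was so for 36.3% of all genes tested. In a test for more than a 2-fold change (edgeR's glmTreat at a minimum log2FC of 1) 0 of the 9 were called lower, and 1 had an unadjusted p below 0.05, while 8.42% of all genes were called lower.

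**Figure D1:**
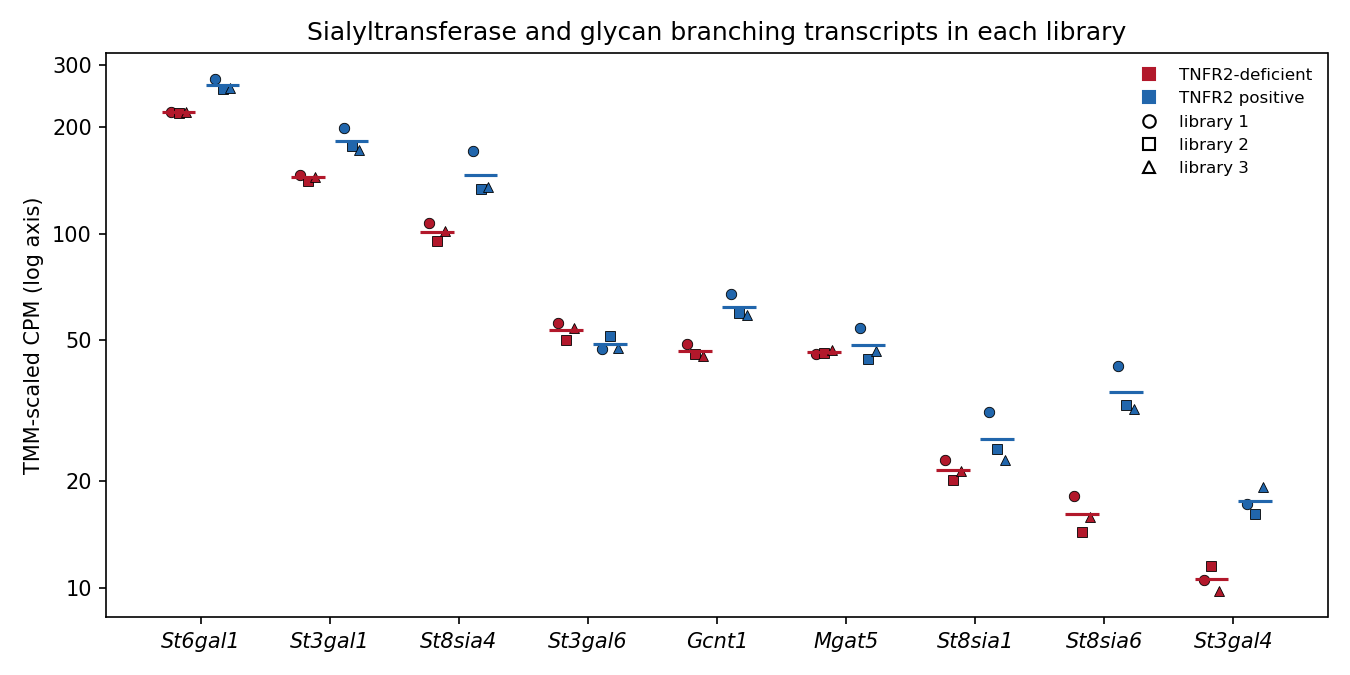
TMM-scaled CPM (log axis) of the 9 genes in each library, TNFR2-deficient libraries left of TNFR2 positive ones, with horizontal bars at group means. St6gal1 had the highest CPM, at 218.9 to 220.5 in TNFR2-deficient libraries and 255.5 to 273.9 in TNFR2 positive ones, and St3gal6, Mgat5 and St8sia1 are the genes whose groups overlap.

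Exonic length, the merged exons of all annotated transcripts of a gene, bears on these calls. Genes with greater exonic length tended to be lower in the TNFR2-deficient libraries (Spearman rho of -0.298 of exonic length with log2FC). The rho was taken over 16623 genes, which are not independent replicates. Within its group TNFR2 positive library 1 tended to higher levels of genes with greater exonic length (rho = 0.364 between its difference from the other 2 libraries and length). It was also the highest of its group for 7 of the 9 genes, and the same share over all genes was not counted. With each library's relation to exonic length removed, 4 of the 9 genes were lower and 3 higher, against 29.2% lower and 38.8% higher of all genes, and the median of the 9 was -0.08 beside 0.11 for all genes. St3gal4, St6gal1, St8sia6 and Gcnt1 were lower in both fits. What the length relation comes from was not tested.

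**Figure D2:**
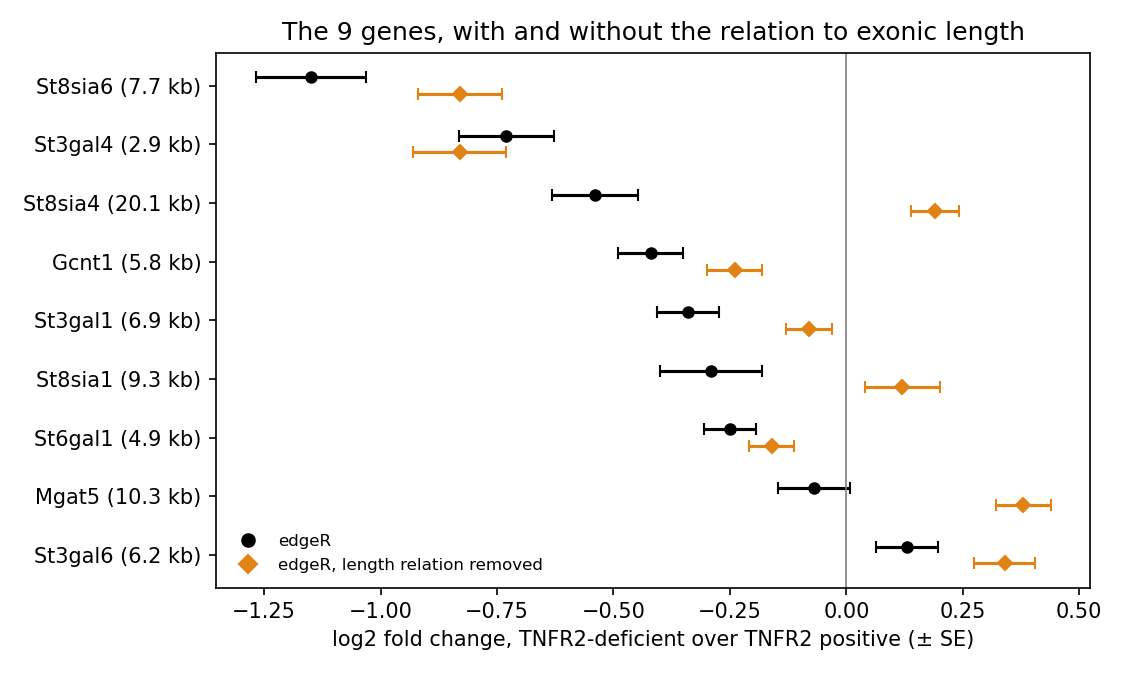
Log2 fold change (TNFR2-deficient over TNFR2 positive, ± SE) of the 9 genes, with exonic length in kb, by edgeR (black circles) and by edgeR with each library's relation to exonic length removed (orange diamonds). St8sia4 lies at -0.54 and at 0.19, while St3gal4 lies at -0.73 and at -0.83.

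Both enzymes that act on core 1 O-glycans were lower. St3gal1 (ENSMUSG00000013846), which caps core 1 with alpha-2,3 sialic acid and so blocks peanut agglutinin, was at 146.3, 141.1 and 144.9 CPM in TNFR2-deficient libraries 1 to 3 and at 198.3, 176.5 and 172.4 CPM in TNFR2 positive libraries 1 to 3. All TNFR2-deficient libraries lay below all TNFR2 positive ones, and St3gal1 was 1.27-fold lower (log2FC = -0.34, SE 0.0658, edgeR adjusted p = 0.000632). With the length relation removed the call was lost (log2FC = -0.08, edgeR adjusted p = 0.159). Gcnt1 (ENSMUSG00000038843), the core 2 enzyme that marks cortical thymocytes and activated T cells, was at 48.7, 45.6 and 45.2 CPM in TNFR2-deficient libraries and at 67.4, 59.6 and 59.0 CPM in TNFR2 positive ones. The groups did not overlap here either (log2FC = -0.42, SE 0.0697, edgeR adjusted p = 0.000223), and Gcnt1 was still lower with the length relation removed (log2FC = -0.24, edgeR adjusted p = 0.00168). Gcnt1 was lower in the libraries in which the double-positive thymocyte markers were higher. The part of thymocytes and of the other cell types in the Gcnt1 result was not tested.

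Of the enzymes among the 9 that cap lactosamine chains, 2 were lower and the third did not pass the threshold. St6gal1 (ENSMUSG00000022885), which makes the alpha-2,6 linked ligands of the B cell lectin CD22, was at 220.5, 218.9 and 220.4 CPM in TNFR2-deficient libraries and at 273.9, 255.5 and 257.4 CPM in TNFR2 positive ones. The TNFR2-deficient libraries were nearly equal and lay below every TNFR2 positive library (log2FC = -0.25, SE 0.0564, edgeR adjusted p = 0.00167), and the value was -0.16 with the length relation removed (edgeR adjusted p = 0.00712). St6gal1 is abundant in B cells, whose 5 markers summed to 5112 to 5312 against 4017 to 4109 CPM in the same libraries. These markers did not go one way: Cd79a and Cd79b, of the B cell receptor, had log2FC of 0.76 and 0.88, Pax5 fell by 0.43 on the log2 scale (edgeR adjusted p = 0.000247), and Ebf1 and Ms4a1 were at -0.10 and -0.07 without passing the threshold. With the length relation removed Pax5 no longer passed it (log2FC = -0.05, edgeR adjusted p = 0.44), while Ebf1 and Ms4a1 were higher, with log2FC of 0.33 and 0.13. Their part in the St6gal1 result was not tested. St3gal4 (ENSMUSG00000032038), an alpha-2,3 sialyltransferase of leukocyte selectin ligands, was at 10.5, 11.5 and 9.77 CPM in TNFR2-deficient libraries and at 17.2, 16.1 and 19.3 CPM in TNFR2 positive ones. The groups were apart, with the second largest change of the 9 genes, 1.66-fold lower (log2FC = -0.73, SE 0.102, edgeR adjusted p = 5.18e-05). It was the one gene of the 9 whose fall was larger with the length relation removed (log2FC = -0.83, edgeR adjusted p = 1.92e-06). A transcript annotated on the opposite strand, 4930581F22Rik, shares 412 exonic bases with St3gal4 and had at most 205 counts in a TNFR2-deficient library and 297 in a TNFR2 positive one, and without a stated strand setting their reads cannot be told apart. St3gal6 (ENSMUSG00000022747), which also caps lactosamine in selectin ligands, was at 55.9, 50.2 and 54.1 CPM in TNFR2-deficient libraries and at 47.3, 51.4 and 47.5 CPM in TNFR2 positive ones. Its groups overlapped and it did not pass the threshold (log2FC = 0.13, SE 0.0663, edgeR adjusted p = 0.0929), but it did with the length relation removed (log2FC = 0.34, edgeR adjusted p = 0.000264).

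The alpha-2,8 sialyltransferases included the largest fall of the 9 genes. St8sia6 (ENSMUSG00000003418), which makes short alpha-2,8 chains that the inhibitory lectin Siglec-E can bind, was at 18.2, 14.4 and 15.8 CPM in TNFR2-deficient libraries and at 42.4, 32.8 and 31.9 CPM in TNFR2 positive ones. Every TNFR2-deficient library lay far below every TNFR2 positive one, and St8sia6 was 2.21-fold lower (log2FC = -1.15, SE 0.118, edgeR adjusted p = 5.29e-06). It was -0.83 with the length relation removed (edgeR adjusted p = 6.25e-07). St8sia4 (ENSMUSG00000040710), a polysialyltransferase that acts on NCAM1 and on the chemokine receptor CCR7, was at 106.9, 95.1 and 101.6 CPM in TNFR2-deficient libraries and at 170.9, 133.5 and 135.3 CPM in TNFR2 positive ones. The groups were apart (log2FC = -0.54, SE 0.0924, edgeR adjusted p = 0.000276). St8sia4 has the most exonic bases of the 9, at 20091. With the length relation removed its direction turned (log2FC = 0.19, edgeR adjusted p = 0.00455), so its direction depends on how length is treated. St8sia1 (ENSMUSG00000030283), which makes ganglioside GD3 from GM3, was at 23.0, 20.2 and 21.4 CPM in TNFR2-deficient libraries and at 31.4, 24.6 and 22.9 CPM in TNFR2 positive ones. TNFR2-deficient library 1 and TNFR2 positive library 3 nearly coincided, and the call was close to the threshold (log2FC = -0.29, SE 0.11, edgeR adjusted p = 0.0322). It was lost without TNFR2 positive library 1 (log2FC = -0.15, edgeR adjusted p = 0.123), without TNFR2-deficient library 2 or 3 (edgeR adjusted p = 0.0911 and 0.0595), with upper-quartile scaling (0.0564) and with the length relation removed, where the log2FC was 0.12 (edgeR adjusted p = 0.208).

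Mgat5 (ENSMUSG00000036155), which starts the beta-1,6 branch of N-glycans, was at 45.6, 46.0 and 47.0 CPM in TNFR2-deficient libraries and at 54.3, 44.3 and 46.6 CPM in TNFR2 positive ones. The groups overlapped, with TNFR2 positive library 1 above the other 5, and the gene did not pass the threshold (log2FC = -0.07, SE 0.0773, edgeR adjusted p = 0.452). Without that library the log2FC was 0.02 (edgeR adjusted p = 0.772). With the length relation removed Mgat5, with 10291 exonic bases, was higher in the TNFR2-deficient libraries (log2FC = 0.38, edgeR adjusted p = 2.77e-05). Tmem163, on the opposite strand, shares 152 exonic bases with it and had at most 495 counts in a TNFR2-deficient library and 356 in a TNFR2 positive one.

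Levels of different genes were compared per length, as CPM per kb of exon. The length is that of the merged exons of all annotated transcripts, which may exceed that of the transcripts present. The order therefore depends in part on the annotation. St6gal1 stood first in both groups, at 44.7 ± 0.187 CPM per kb in TNFR2-deficient libraries and 53.3 ± 2.06 in TNFR2 positive ones (SD, n = 3 each), followed by St3gal1 at 21.0 ± 0.399 and 26.6 ± 2.03. In TNFR2-deficient libraries the order went on with St3gal6 (8.65), Gcnt1 (8.08), St8sia4 (5.04), Mgat5 (4.49), St3gal4 (3.62), St8sia1 (2.30) and St8sia6 (2.11 CPM per kb). Of these neighbours St3gal6 and Gcnt1 overlapped, as did St8sia1 and St8sia6, and the others were separate. In TNFR2 positive libraries it went on with Gcnt1 (10.8), St3gal6 (7.90), St8sia4 (7.30), St3gal4 (6.01), Mgat5 (4.70), St8sia6 (4.66) and St8sia1 (2.82 CPM per kb), where St3gal6 overlapped with St8sia4 and Mgat5 with St8sia6. The last place was thus held by St8sia6 in one group and by St8sia1 in the other.

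Summed over the 17 sialyltransferase genes of the table, the level was 112, 110 and 110 CPM per kb in TNFR2-deficient libraries and 135, 125 and 126 in TNFR2 positive ones, so the groups were apart (two-sided exact permutation p = 0.1, the smallest that 3 against 3 allows). Division by length does not take out each library's relation to length, which therefore remains in this sum and in the shares. The make-up of this sum changed little at the top. St6gal1 held 40.6% ± 0.396 of it in TNFR2-deficient libraries and 41.5% ± 0.26 in TNFR2 positive ones, and St3gal1 held 19.1% ± 0.253 and 20.7% ± 0.689 (SD, n = 3 each). St8sia6 held 1.91% ± 0.206 in TNFR2-deficient libraries and 3.61% ± 0.42 in TNFR2 positive ones. St3gal5, the GM3 synthase, held 4.92% ± 0.125 and 2.29% ± 0.49, which is the largest difference in share, 2.63 percentage points. St3gal6 held 7.84% ± 0.367 and 6.15% ± 0.503, and the 2 groups did not overlap in these shares.

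**Figure D3:**
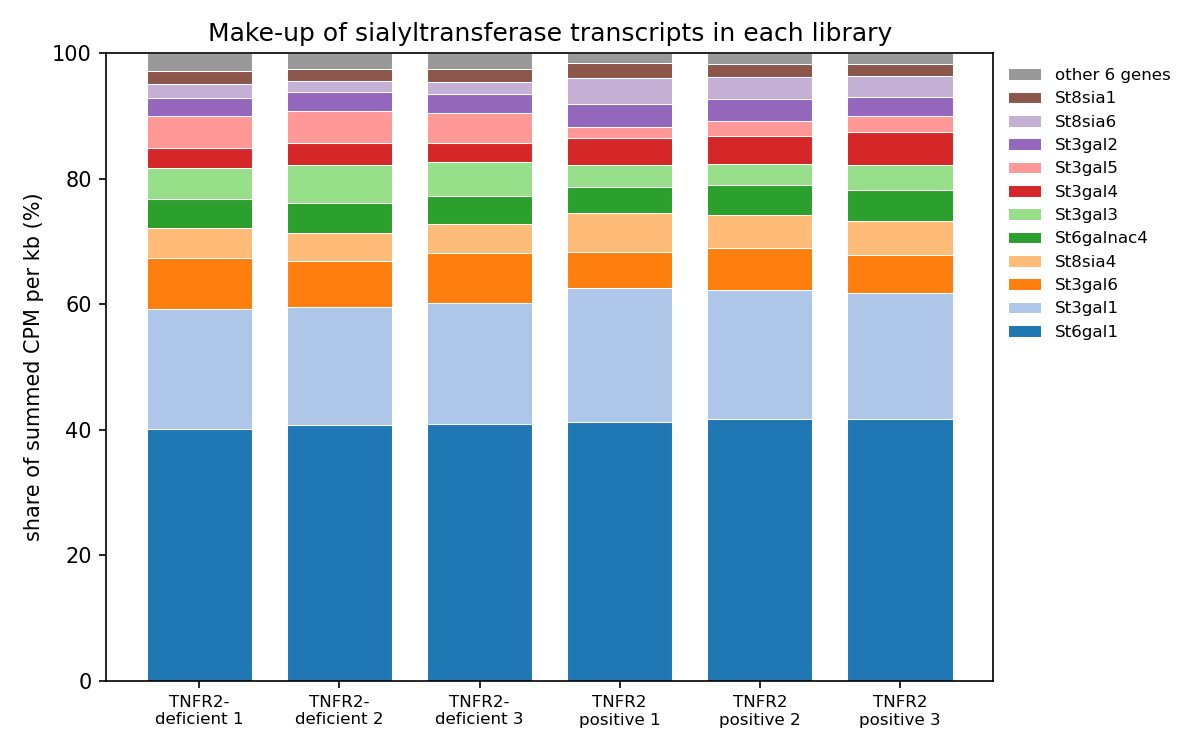
Share (%) of each sialyltransferase in the summed CPM per kb of 17 sialyltransferase genes, with TNFR2-deficient libraries left of TNFR2 positive ones. St6gal1 and St3gal1 form the base in every library, and St3gal5 holds 4.78% to 5.02% in TNFR2-deficient libraries against 1.73% to 2.62% in TNFR2 positive ones.

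Ratios within a library were taken for 6 pairs of enzymes that compete or act in succession, chosen after the values were seen. They cancel the scaling of the libraries but not the relation to length. Gcnt1 over St3gal1, the competitors for core 1, was 0.396, 0.385 and 0.371 in TNFR2-deficient libraries and 0.404, 0.402 and 0.407 in TNFR2 positive ones. The ratio was 1.05-fold lower in TNFR2-deficient libraries, a small shift beside the fall of both transcripts. The ratio of St3gal1 to C1galt1, which makes core 1, overlapped between groups, at 0.731 to 0.819 and 0.738 to 0.838. St6gal1 over St3gal4, competitors for lactosamine galactose, was 12.5, 11.3 and 13.4 in TNFR2-deficient libraries and 9.45, 9.43 and 7.91 in TNFR2 positive ones. This ratio was 1.39-fold higher in TNFR2-deficient libraries. St3gal6 and St3gal3, also alpha-2,3 sialyltransferases, are left out of it. They were at 8.65 and 6.02 CPM per kb in TNFR2-deficient libraries and 7.9 and 4.6 in TNFR2 positive ones, and St3gal4 at 3.62 and 6.01. The ratio therefore does not give the balance of alpha-2,6 to alpha-2,3 enzymes. St8sia1 over St3gal5, which act in succession on gangliosides, was 0.438, 0.398 and 0.437 in TNFR2-deficient libraries and 1.44, 0.832 and 0.745 in TNFR2 positive ones, 2.27-fold lower. Mgat5 over Mgat4a, an enzyme of the other added branch, was 1.05 to 1.12 in TNFR2-deficient libraries and 0.685 to 0.753 in TNFR2 positive ones. Mgat4b, of the same branch as Mgat4a, is left out of this ratio and went the other way. It was at 3.05 against 1.82 CPM per kb, and Mgat4a at 4.11 against 6.6. Mgat5 over Mgat1, which starts the complex N-glycan, was 0.116 to 0.121 and 0.175 to 0.227. In 5 of the 6 pairs the groups did not overlap. Each of these had a two-sided exact permutation p of 0.1, the smallest possible, or 0.12 adjusted over the 6 ratios. The adjustment does not cover the choice of pairs after the values were seen, so no conclusion is drawn from this count or these p-values. How often groups do not overlap in other pairs of genes was not counted. For St3gal1 over C1galt1 the exact permutation p was 0.2, also after adjustment.

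Counts of the related glycan lists are read beside the shares of all genes tested, 35.1% higher and 34.2% lower, and no list was tested as a group. Of 13 other sialyltransferases 7 were tested, of which 4 rose and 2 fell (median log2FC = 0.39, beside 0.04 for all genes). St6galnac3, which adds alpha-2,6 sialic acid to already sialylated glycans, was at 9.69, 10.5 and 9.90 CPM in TNFR2-deficient libraries and 5.10, 4.86 and 4.82 CPM in TNFR2 positive ones (log2FC = 1.02, edgeR adjusted p = 6.35e-06). St3gal5 was at 14.2 ± 0.491 against 7.68 ± 1.35 CPM (mean ± SD, n = 3 each, here and below; log2FC = 0.89, edgeR adjusted p = 5.56e-05). St3gal3, of the same linkage as St3gal4, rose 1.31-fold, while St3gal2, which like St3gal1 acts on core 1 structures, fell 1.32-fold (edgeR adjusted p = 0.00486 and 0.00297). All 4 of these kept their call and direction with the length relation removed. St6gal2, the other alpha-2,6 enzyme of lactosamine, had 1 count over the TNFR2-deficient libraries and 0 over the TNFR2 positive ones, where 0 allows up to 0.127 to 0.155 CPM per library, and it was not tested.

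Of 6 genes that supply sialic acid 3 rose and 2 fell (median log2FC = 0.20), beside 35.1% higher and 34.2% lower of all genes. Cmas, which activates sialic acid to its CMP form, was at 76.8 ± 0.602 CPM in TNFR2-deficient libraries and 47.2 ± 3 CPM in TNFR2 positive ones (log2FC = 0.70, edgeR adjusted p = 1.85e-06), and the phosphatase gene Nanp rose 1.71-fold (edgeR adjusted p = 4.26e-05). Cmah, which hydroxylates CMP-sialic acid to the Neu5Gc form, was at 263.1, 250.7 and 261.8 CPM in TNFR2-deficient libraries and at 711.7, 526.4 and 482.1 CPM in TNFR2 positive ones. All TNFR2-deficient libraries were lower (log2FC = -1.15, edgeR adjusted p = 4.6e-06), and the log2FC of Cmah was -0.68 with the length relation removed. Of the 5 genes in the list of sialidases and their protective protein 3 were tested, and these 3 rose, beside 35.1% of all genes: Neu1, the lysosomal sialidase, 1.25-fold, Ctsa, its protective protein, 1.58-fold, and Neu3, the ganglioside sialidase, 1.54-fold (edgeR adjusted p = 0.00105, 3.68e-06 and 0.000995). The myeloid markers summed to 822.8 to 891.0 against 444.9 to 501.2 CPM in the same libraries, with 5 of 7 higher. Their part in these rises was not tested.

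In the N-glycan pathway around Mgat5, 4 of 11 tested genes rose and 4 fell (median log2FC = -0.03), close to the shares of all genes, 35.1% higher and 34.2% lower. Mgat1, at the start of the complex N-glycan, was at 178.1 ± 2.57 CPM in TNFR2-deficient libraries and 111.6 ± 4.14 CPM in TNFR2 positive ones (log2FC = 0.67, edgeR adjusted p = 1.16e-06). Mgat2, at the next branch, had a log2FC of 0.25 (edgeR adjusted p = 0.00965), and its call was lost without TNFR2-deficient library 1 (edgeR adjusted p = 0.067) and with the length relation removed (log2FC = 0.13, edgeR adjusted p = 0.0851). Man2a2, a mannosidase that acts between these 2 enzymes, fell 1.72-fold (edgeR adjusted p = 1.86e-06), with a log2FC of -0.78, or -0.33 with the length relation removed. The paired beta-1,4 branching enzymes went apart: Mgat4a, at 53.0 ± 1.81 against 85.0 ± 12.3 CPM, fell (log2FC = -0.68, edgeR adjusted p = 3.64e-05), and Mgat4b, at 8.29 ± 0.926 against 4.96 ± 0.241 CPM, rose (log2FC = 0.74, edgeR adjusted p = 0.000233). The Mgat4a call was lost with the length relation removed (log2FC = -0.14, edgeR adjusted p = 0.0524).

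Of 13 tested O-glycan genes beside Gcnt1, 7 fell and 3 rose (median log2FC = -0.27), beside 34.2% lower and 35.1% higher of all genes. When the length relation was removed 4 were lower and 3 higher (median log2FC = -0.04), beside 29.2% and 38.8% of all genes. The GalNAc transferases that start O-glycans differed among themselves: Galnt6 was at 46.3 ± 1.99 CPM in TNFR2-deficient libraries and 82.5 ± 3.55 CPM in TNFR2 positive ones (log2FC = -0.83, edgeR adjusted p = 4.44e-07), and Galnt3 at 8.79 ± 0.673 against 3.23 ± 0.217 CPM (log2FC = 1.44, edgeR adjusted p = 1.62e-06). C1galt1 had a log2FC of -0.27 (edgeR adjusted p = 0.026). Without TNFR2 positive library 1 that value was -0.14 (edgeR adjusted p = 0.03), and the call was lost without TNFR2-deficient library 2 (edgeR adjusted p = 0.0925) and with the length relation removed (log2FC = -0.07, edgeR adjusted p = 0.397). C1galt1c1, its chaperone COSMC, rose 1.55-fold (edgeR adjusted p = 0.000225). Gcnt2, which branches lactosamine chains, fell 2.24-fold and was low in both groups, at 3.28 ± 0.376 against 7.35 ± 0.402 CPM (edgeR adjusted p = 1.38e-05).

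**Figure D4:**
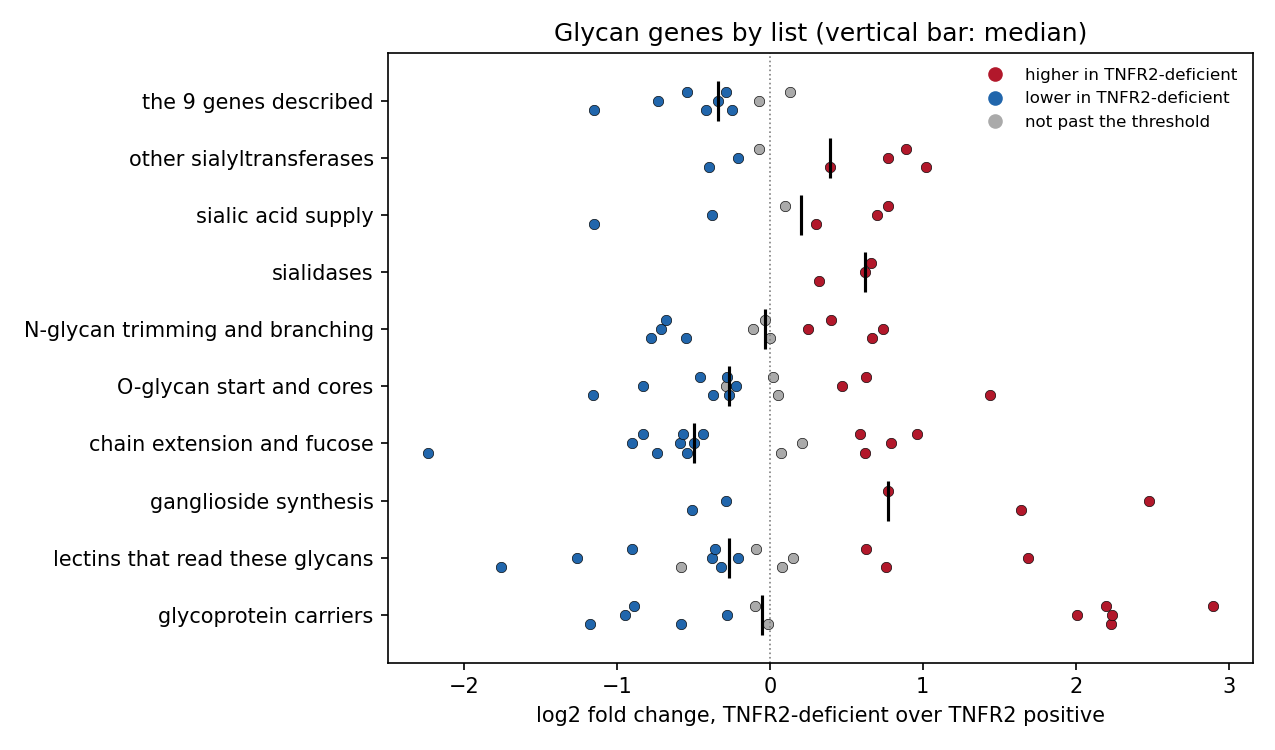
Log2 fold change (TNFR2-deficient over TNFR2 positive) of every tested gene in the 9 genes described and in 9 lists of related glycan genes, with vertical bars at list medians. Red points were higher and blue points lower in TNFR2-deficient libraries, and the 9 genes described hold no red point while the other sialyltransferases hold 4.

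Among chain extension and fucose genes 9 of 15 tested fell and 4 rose (median log2FC = -0.50), beside 34.2% lower and 35.1% higher of all genes. B4galt1, which adds the galactose that sialyltransferases cap, fell 1.49-fold, at 79.7 ± 1.84 CPM in TNFR2-deficient libraries and 118.7 ± 1.85 CPM in TNFR2 positive ones (edgeR adjusted p = 3.32e-06). B3gnt8, which extends branched N-glycans, and Slc35c1, the transporter of GDP-fucose, rose 1.95-fold and 1.54-fold (edgeR adjusted p = 4.65e-07 and 3.83e-06). Of 5 ganglioside and glycosphingolipid genes 3 rose and 2 fell (median log2FC = 0.77), beside the same shares of all genes. Ugcg, which makes glucosylceramide, fell 1.42-fold, at 137.2 ± 7.72 against 195.0 ± 9.57 CPM (edgeR adjusted p = 2.82e-05). A4galt and B3galnt1, of globo-series lipids, rose with low counts, 74 against 12 and 146 against 43 reads over the 3 libraries (log2FC = 2.48 and 1.64, edgeR adjusted p = 9.29e-05 and 0.000225).

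Of 14 lectins that read these glycans 7 fell and 3 rose (median log2FC = -0.27), beside 34.2% lower and 35.1% higher of all genes. Siglece, for the receptor Siglec-E that can bind the products of St8sia6, was at 25.3, 26.2 and 25.1 CPM in TNFR2-deficient libraries and at 7.97, 7.93 and 7.77 CPM in TNFR2 positive ones (log2FC = 1.69, edgeR adjusted p = 9.27e-09). The receptor transcript was thus higher in the libraries in which St8sia6 was lower. In the same libraries 5 of 7 markers of myeloid cells, which carry Siglec-E, rose. S100a8 and S100a9 did not pass the threshold (log2FC = 0.06 and -0.03, edgeR adjusted p = 0.46 and 0.771). The part of myeloid cells in the Siglece result was not tested. Siglech, of plasmacytoid dendritic cells, fell 3.39-fold, and Lgals9, for galectin-9, rose 1.54-fold (edgeR adjusted p = 8.07e-07 and 2.19e-06). Cd22 was named after its value was seen because it binds the product of St6gal1. It was at 778.4 ± 33.5 CPM in TNFR2-deficient libraries and 900.5 ± 33.3 CPM in TNFR2 positive ones, 1.16-fold lower (edgeR adjusted p = 0.00763). That call was lost with the length relation removed (log2FC = -0.11, edgeR adjusted p = 0.0951). Siglecg, of the same list and also named after its value was seen, overlapped between groups (log2FC = 0.08, edgeR adjusted p = 0.247). With the length relation removed Siglecg was higher (log2FC = 0.16, edgeR adjusted p = 0.0217).

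Of 12 glycoprotein carriers 5 rose and 5 fell (median log2FC = -0.06), beside the shares of all genes, 35.1% higher and 34.2% lower. Cd8a, Cd8b1 and Cd4, which also stand in the thymocyte marker list, rose 4.59-fold, 4.73-fold and 4.71-fold (edgeR adjusted p = 6.12e-11, 1.65e-10 and 5.63e-11). CD8 is among the carriers of core 1 O-glycans that ST3Gal1 caps. Spn and Ptprc, named after their values were seen, encode CD43 and CD45, the main carriers of core 2 O-glycans made by the Gcnt1 enzyme in T cells. Spn was at 85.9 ± 2.05 CPM in TNFR2-deficient libraries and 165.5 ± 7.14 CPM in TNFR2 positive ones (log2FC = -0.95, edgeR adjusted p = 1.02e-07). Ptprc was at 1321 ± 54.1 against 2439.8 ± 324 CPM (log2FC = -0.89, edgeR adjusted p = 3.13e-06). Its log2FC was -0.20 when the length relation was removed. Selplg, Ncam1 and Ccr7, of the same list, were also named after their values were seen. The Selplg groups overlapped and the gene did not pass the threshold (log2FC = -0.10, edgeR adjusted p = 0.174). Ncam1 and Ccr7, whose products St8sia4 acts on, went opposite ways. Ncam1 rose with low counts, 67 against 8 reads over the 3 libraries (log2FC = 2.90, edgeR adjusted p = 0.000106). Ccr7 fell (log2FC = -0.58, edgeR adjusted p = 7.45e-06).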

How the data were processed

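The authors deposited whole-number read counts per gene without normalization. The submitters' processing notes name HISAT2 2.1.0 and build GRCm39. How reads were counted, with which annotation and strand setting, is not given in the sources used here. Columns were matched to samples by title. Symbols came from the gene name table supplied (30529 of 32377 identifiers), exonic lengths from GENCODE M21, which is of an older build and gave no coordinates, and promoters from RefSeq. After filterByExpr and TMM scaling, genes were tested with edgeR 4.0.16 in R 4.3.3 (glmQLFit, glmQLFTest, intercept and group), adjusted over 17022 genes at a threshold of 0.05. Levels are TMM-scaled CPM. The length relation was removed by spline offsets (4 degrees of freedom). Both procedures were tested on simulated data. For the length removal the simulated data held no changed genes. They therefore cannot show what the removal does to true differences in genes with greater exonic length. The alternatives included DESeq2 1.42.0 and limma-voom (limma 3.58.1). Floors cover counting error only, since no molecular identifiers are described. The genes and lists were chosen with earlier results of these data known. Named are the 9 genes, Tnfrsf1b, Foxp3 and Rag1, the 3 genes of each glycan list with the smallest adjusted p, and genes of the same linkage. Some others are also given, among them markers of cell types and genes named after their values were seen. St8sia2, of the same linkage as St8sia4, was not analysed here. 1 gene of the B cell marker list is not reported here and is left out of that list's sums and counts.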

Additional observations from a re-analysis of the deposited data

How the results depend on the processing

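Over 16 alternatives (other scaling, filters and tools, the replicate number as a block, a minimum fold, the length relation and each library left out), the 9 genes gave 7 lower and 0 higher except as follows. Upper-quartile scaling gave 6 lower, without St8sia1, and 1 higher, St3gal6. With the length relation removed 4 were lower and 3 higher, and the log2FC of St8sia1, St8sia4 and Mgat5 turned to 0.12, 0.19 and 0.38. Genes with greater exonic length are raised in TNFR2-deficient libraries by construction there. With a minimum log2FC of 1, 0 of the 9 were lower by edgeR's glmTreat (1, at an unadjusted p below 0.05), with 764 genes higher and 1434 lower overall. Leaving out each library gave 6 to 7 lower and 0 higher, with log2FC from -0.13 to 0.02 for Mgat5. Of 144 values of the 9 genes under an alternative 126 kept their direction and side of the threshold. Of 607 such values of 38 other named genes that were tested, 574 did so and 33 kept their direction but no longer passed the threshold. A4galt did not pass the filter of 1 CPM in 3 libraries and has no value there. The replicate numbers did not pair the libraries: the deviations of same-numbered libraries correlated at 0.04, 0.05 and -0.06, and not every library correlated best with its own number. With the replicate block 7 of the 9 were lower and 11856 genes were called, against 11802. The lowest count of the 9 genes in a library was 235, so depth limits genes such as A4galt, with 12 reads in one group, more than the 9.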
